A study of Mus musculus with 1 sample.

Results

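Mt1 and Mt2 are the metallothionein genes described here, 2 of the 27998 genes listed in the count files, and they were taken by their symbols. Values of the same library had drawn attention to both genes before, so their levels in the cell types are given as a description and were not tested. The data came from single-cell RNA sequencing of 1 library of testis cells of wild-type C57BL/6 mice at postnatal day 8. Cells from 3 mice were pooled in equal numbers, spermatogonia were enriched with beads against the surface protein THY1, and some unselected testis cells were added back, so the proportions of cell types follow from this mixture and the mice cannot be told apart. The Zscan2-KO library was not analysed here.

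Metallothioneins are small, cysteine-rich proteins of the cytoplasm and nucleus that bind zinc, copper and cadmium and also react with oxidants. In most tissues Mt1 and Mt2 are switched on together by zinc through the metal-sensing transcription factor MTF1, which binds metal response elements near their start sites, and glucocorticoids and inflammation also raise them. Mt3 is best known from the brain and Mt4 from stratified epithelium. Spermatogonia lie at the base of the seminiferous tubule between Sertoli cells, and the stem cells among them (SSCs) give rise to progenitors and then to differentiating spermatogonia.

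In the GENCODE annotation of GRCm38, the assembly also called mm10, Mt2 (ENSMUSG00000031762) lies on the plus strand at chr8:94172664-94173568 and Mt1 (ENSMUSG00000031765) on the same strand at chr8:94179082-94180327. Between the end of Mt2 and the start of Mt1 there were 5513 bases and 0 other annotated genes, and the main transcript of each gene had 3 exons. Most of Mt2 is overlapped by the antisense gene Gm45774 at chr8:94170748-94173412, which is not among the listed genes. Whether the counting used strand is not given in the sources used here. Whether any reads of Gm45774 were counted for Mt2 was therefore not tested. The transcripts Mt1-201 and Mt2-201, of 549 and 511 bases, shared 0 stretches of 31 bases, and the longest run they had in common was 20 bases. No other annotated gene shared a stretch of 50 bases with either on the same strand. If strand is used, reads of that length from these transcripts, without mismatches, can be assigned to 1 of the genes. The opposite strand, and so the overlap with Gm45774, was outside this search, as were the other transcripts of Mt1 and Mt2.

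The promoters are shown because the metal response elements that MTF1 binds are the best known control of this gene pair. These are the RefSeq promoter windows of 300 bases on GRCm38.p6, plus strand, at chr8:94178839-94179138 for Mt1 and chr8:94172368-94172667 for Mt2. Capitals mark matches to the core of the metal response element, TGCACNC or TGCGCNC, searched on both strands.
Mt1: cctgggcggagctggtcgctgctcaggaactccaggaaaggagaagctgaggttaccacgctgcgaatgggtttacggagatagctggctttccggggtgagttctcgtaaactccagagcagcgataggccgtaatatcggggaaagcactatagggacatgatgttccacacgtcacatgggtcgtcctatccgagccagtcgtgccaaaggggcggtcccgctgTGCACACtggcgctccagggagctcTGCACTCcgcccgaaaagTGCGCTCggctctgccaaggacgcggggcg
Mt2: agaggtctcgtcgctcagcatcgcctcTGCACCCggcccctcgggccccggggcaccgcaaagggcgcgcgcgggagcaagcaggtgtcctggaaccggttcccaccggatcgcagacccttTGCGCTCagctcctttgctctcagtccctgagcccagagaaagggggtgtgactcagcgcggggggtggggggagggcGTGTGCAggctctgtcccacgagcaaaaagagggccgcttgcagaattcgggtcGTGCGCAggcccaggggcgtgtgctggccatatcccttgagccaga
The Mt1 window held 3 matches, which began at -23, 2 and 20 bases from the RefSeq start site, all on the plus strand. In the Mt2 window there were 4, at -223 and -128 on the plus strand and at -50 and 4 on the minus strand. Of all 32851 promoter windows, 1.97% held at least 3 matches and 0.517% at least 4, and 25.7% held at least 1. The windows of Mt3 and Mt4 held 1 match each. Only 1 window per gene was searched, so matches outside it or near other start sites were not counted. A match describes these letters only and does not show that a factor was bound in these cells.

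The library held 970 cell barcodes with 11358045 UMIs (unique molecular identifiers, each counting 1 captured RNA molecule), between 2655 and 44915 per barcode. After barcodes with fewer than 500 genes (10), with at least 10% mitochondrial UMIs (36) or with a doublet call (4) were left out, 920 cells remained. They were clustered and named from marker genes, with 324 cells in germ cell clusters and 596 in somatic clusters. All markers counted for a class were higher in it than in the cells it was held against, for example 6 of 6 for SSC-like and 8 of 8 for Sertoli-like cells. The names were given by these same markers, so this is no separate support for them. Some differences were small, as for Sox3 with 36.0 CPM in progenitor-like cells against 32.9 CPM, and Eomes was found in 9.82% of SSC-like cells. Some clusters were less clear, as the progenitor-like cluster also held a barcode rich in hemoglobin UMIs, and the small T cell-like cluster mixed the lymphocyte genes Cd3g, Xcl1 and Gzmc with the pericyte gene Rgs5. The names were rebuilt here and may differ from those of the study, which counted more spermatogonia in its wild-type sample than there are germ cells here. Mt1 and Mt2 were among the variable genes used for clustering, so separation of the classes is in part built from them.

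Both genes were detected in nearly every germ cell, and their levels were several times higher in germ cells than in any somatic class. To compare classes, the UMIs of a gene were summed over a class and divided by all its UMIs, in UMIs per 1000000 (CPM), and exact 95% Poisson intervals are given that cover counting error only. Mt1 had 2049 CPM in germ cells and 272 CPM in somatic cells, a ratio of 7.54 (interval 7.14 to 7.96), or 2.91 on the log2 scale. For Mt2 the levels were 2158 CPM and 59.5 CPM, a ratio of 36.2 (32.4 to 40.6), or 5.18 on the log2 scale. The ratio was the larger for Mt2. Leaving the metallothionein genes out of the variable genes gave the same log2 ratios of 2.91 and 5.18, since all 324 germ cells, and no others, fell in germ cell clusters again. With a mitochondrial limit of 5%, under which 442 cells were kept, 67 were named germ cells and 118 stayed unnamed, the log2 ratio of Mt2 was 6.07.

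Across the germ cell stages the summed level of Mt1 followed the order of differentiation, though not in every range of depth, as given below. Mt2 was highest in SSC-like cells but did not differ beyond counting error between progenitor-like and differentiating-like cells as whole classes. The 2 clusters joined in the differentiating-like class had 2036 and 1477 CPM of Mt2, against 1960 CPM in progenitor-like cells. In the 112 SSC-like cells, Mt1 had between 2 and 227 UMIs per cell with a median of 49, and its summed level was 2555 CPM (2492 to 2619). Progenitor-like cells, 79 in number, had between 2 and 103 Mt1 UMIs with a median of 32, and a level of 2021 CPM (1949 to 2096). In the 133 differentiating-like cells the range was 0 to 83 with a median of 13, and the level was 1329 CPM (1274 to 1386). The single cells of the 3 stages overlapped widely. The intervals of the summed levels did not overlap, but they cover counting error only and leave out the spread between cells. The Mt1 ratio of SSC-like over differentiating-like cells was 1.92 (1.83 to 2.02), a log2 ratio of 0.94 (0.87 to 1.01). It was 0.92 with the metallothionein genes left out of the variable genes.

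Mt2 was highest in the SSC-like cells as well, with 1 to 192 UMIs per cell, a median of 48.5 and a level of 2451 CPM. It had 1 to 122 UMIs per cell in progenitor-like cells (median 30, level 1960 CPM) and 0 to 107 in differentiating-like cells (median 18, level 1899 CPM). The progenitor-like and differentiating-like levels of Mt2 did not differ beyond counting error, with a log2 ratio of 0.04 (-0.03 to 0.12). Between SSC-like and differentiating-like cells the log2 ratio was 0.37 (0.31 to 0.43), and 0.36 without the metallothionein genes among the variable genes. The classes differed in depth, from a median of 22293 UMIs per cell in SSC-like to 10878 in differentiating-like cells, so levels per UMI and not counts per cell were compared.

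**Figure D1:**
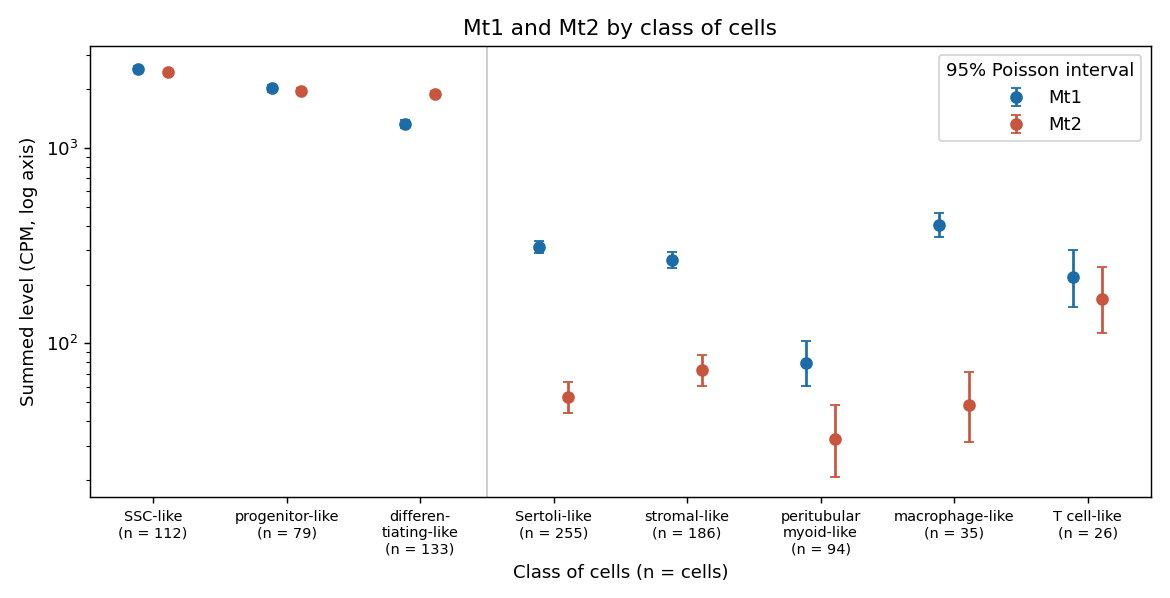
Summed level of Mt1 and Mt2 (CPM, log axis) in each class of cells, with bars for exact 95% Poisson intervals and the number of cells under each class. The 3 germ cell classes lie between 1329 and 2555 CPM for both genes, and every somatic class lies at or below 405 CPM.

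The differentiating-like class joined 2 germ cell clusters that differed in both genes. In the larger cluster, with Kit and Stra8, the receptor and the retinoic acid response gene of early differentiating spermatogonia, Mt1 had 1501 CPM and Mt2 2036 CPM. The 32 cells of the other cluster, led by the testis genes Ly6k, Esx1 and Prss50, had 798 CPM of Mt1 and 1477 CPM of Mt2. The Mt1 level was 1.88-fold higher in the former (1.67 to 2.12) and the Mt2 level 1.38-fold (1.26 to 1.51). Against SSC-like cells, the Ly6k cluster was lower by a log2 ratio of 1.68 for Mt1 and 0.73 for Mt2.

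Levels also varied with the depth of the germ cells. Germ cells with under 5000 UMIs, 45 in number, had 1876 CPM of Mt1 and 2201 CPM of Mt2. The 54 cells with at least 25000 UMIs had 2364 and 2353 CPM. In differentiating-like cells alone, the shallowest 36 cells had 1749 CPM of Mt1 against 1332 CPM in the deepest 10, and in progenitor-like cells 7 cells under 5000 UMIs had 2882 CPM against 1405 CPM in the deepest 7. In SSC-like cells the level went the other way, from 2092 CPM in 13 cells of 5000 to 15000 UMIs to 2826 CPM in 37 cells of at least 25000. At 5000 to 15000 UMIs Mt1 had 2092 CPM in SSC-like cells and 2204 CPM in 10 progenitor-like cells. Under 5000 UMIs the levels were 1030 CPM in 2 SSC-like cells and 2882 CPM in 7 progenitor-like cells. SSC-like cells were higher at 15000 to 25000 UMIs, with 2378 against 2099 CPM, and above that, with 2826 against 1405 CPM. The part of depth in the stage differences was not tested beyond this. Without germ cells under 5000 UMIs, the log2 ratio of SSC-like over differentiating-like cells was 0.98 for Mt1 and 0.39 for Mt2.

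Among somatic cells, Mt1 was highest in macrophage-like cells and lowest in peritubular myoid-like cells, the contractile cells around the tubule. The 35 macrophage-like cells had 0 to 22 Mt1 UMIs each with a median of 5, and a level of 405 CPM (352 to 464). Sertoli-like cells, the 255 supporting cells of the tubule, had 0 to 16 with a median of 2, and a level of 311 CPM (289 to 335). In the 186 stromal-like cells the range was 0 to 58 with a median of 1, and the level 267 CPM (242 to 293). The 94 peritubular myoid-like cells had 0 to 6 with a median of 0, and a level of 79.7 CPM (60.7 to 103). The log2 ratio of Sertoli-like over peritubular myoid-like cells was 1.97 (1.58 to 2.38). The 26 T cell-like cells had a Mt1 level of 218 CPM that did not differ from the stromal-like level beyond counting error, with a log2 ratio of stromal-like over T cell-like of 0.29 (-0.20 to 0.82).

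Mt2 was low in all somatic classes, and most somatic cells had no UMI of it. Its levels were 73.1 CPM in stromal-like cells, 53.1 CPM in Sertoli-like cells, 48.4 CPM in macrophage-like cells and 32.4 CPM in peritubular myoid-like cells. Sertoli-like and macrophage-like cells did not differ beyond counting error (log2 ratio 0.13, -0.50 to 0.82), nor did macrophage-like and peritubular myoid-like cells (0.58, -0.29 to 1.45). The T cell-like class had 170 CPM of Mt2, but 17 of its 28 Mt2 UMIs and 18 of its 36 Mt1 UMIs came from 1 cell. Without that cell the class had 113 CPM of Mt1 and 68.9 CPM of Mt2.

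The 255 Sertoli-like cells came from 3 clusters with different Mt1 levels. Mt1 had 441 CPM in the cluster of 45 cells, 329 CPM in that of 132 cells and 194 CPM in that of 78 cells. Mt2 had 64.0, 58.1 and 37.7 CPM in the same order, all far below germ cells. Mt3, the neighbouring metallothionein gene, ran in the other direction with 345, 442 and 529 CPM. Mt3 had 448 CPM over all Sertoli-like cells and 26.3 CPM in germ cells, a log2 ratio of 4.09 (3.84 to 4.35), so Mt3, unlike Mt1 and Mt2, was lower in germ cells than in Sertoli-like cells. In macrophage-like cells Mt3 had 0 UMIs, and with a floor of 3 counts this allows up to 5.81 CPM.

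**Figure D2:**
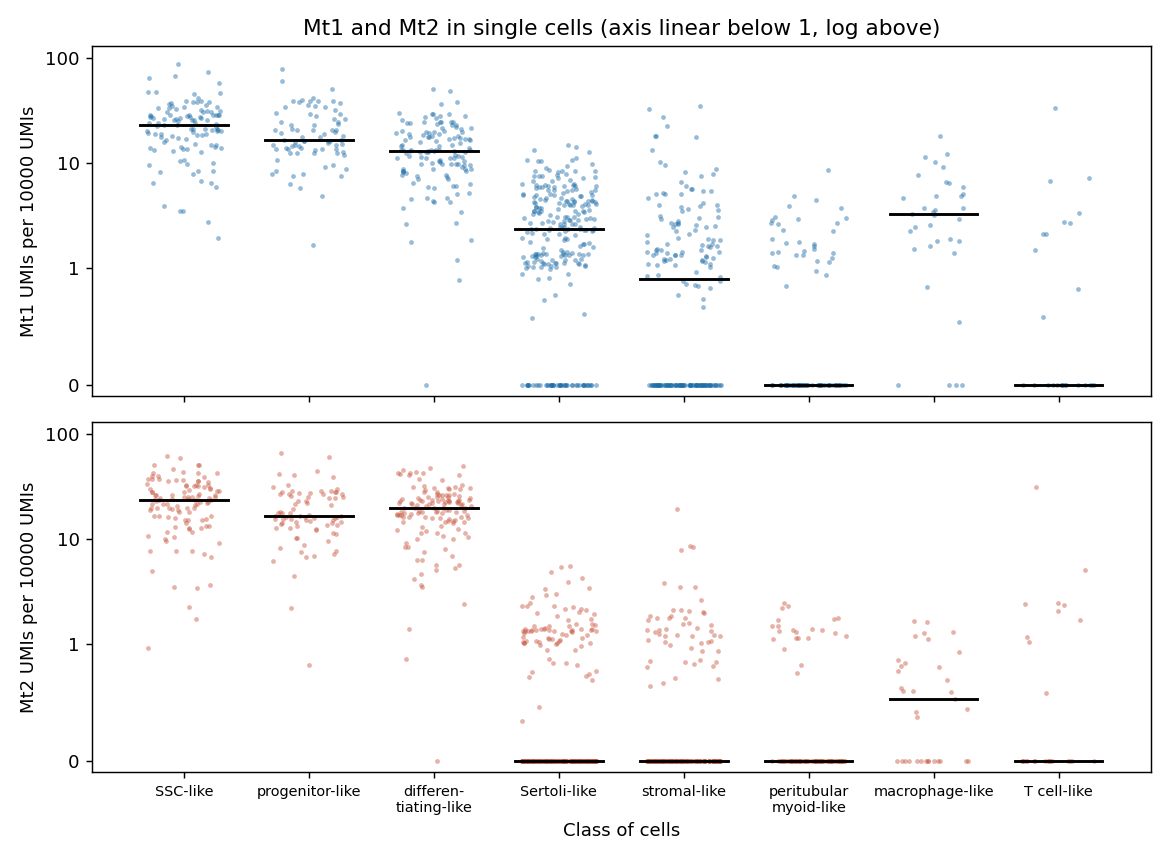
UMIs of Mt1 (upper panel) and Mt2 (lower panel) per 10000 UMIs of each cell, 1 point per cell, by class, with the median as a black line. The axis is linear below 1 and logarithmic above. Germ cell classes hold 1 cell with 0 UMIs of either gene, whereas 209 of the 596 somatic cells have 0 Mt1 UMIs and 404 have 0 Mt2 UMIs.

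The balance between the genes also differed between cell types. Since UMI counts were not divided by transcript length, the share of Mt1 among the UMIs of both genes was used only to set classes side by side. Mt1 made up 51.0% of these UMIs in SSC-like cells (exact binomial interval 50.2 to 51.9%), 50.8% in progenitor-like cells (49.5 to 52.1%) and 41.2% in differentiating-like cells (39.8 to 42.5%). It was 42.4% in the Kit and Stra8 cluster and 35.1% in the Ly6k cluster (32.0 to 38.2%). The balance thus lay further towards Mt2 in the differentiating-like cells than in the earlier stages. Cell by cell, 104 of 133 differentiating-like cells had more Mt2 than Mt1 UMIs, compared with 46 of 112 SSC-like cells.

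In somatic cells the balance lay towards Mt1. Its share was 85.4% in Sertoli-like cells (82.8 to 87.7%), 78.5% in stromal-like cells (74.8 to 81.8%), 89.3% in macrophage-like cells (84.6 to 93.0%) and 71.1% in peritubular myoid-like cells (60.1 to 80.5%). In Sertoli-like cells, 184 had more Mt1 and 12 had more Mt2. The T cell-like share of 56.3% had an interval of 43.3 to 68.6%, which includes the germ cell share of 48.7%. Somatic levels of both genes are set beside those of germ cell markers below, and the part of free RNA in these shares was not tested.

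**Figure D3:**
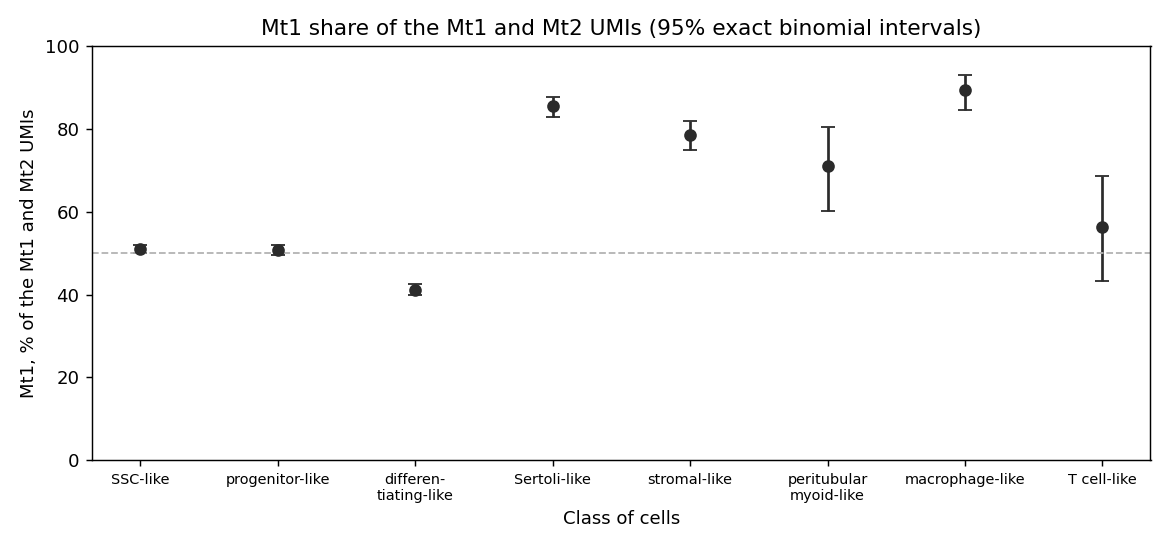
Mt1 as a percentage of the Mt1 and Mt2 UMIs in each class, with exact 95% binomial intervals and a dashed line at equal counts. SSC-like and progenitor-like cells lie near the line, differentiating-like cells at 41.2% lie below it, and Sertoli-like, stromal-like, peritubular myoid-like and macrophage-like cells lie between 71.1 and 89.3%.

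In droplet data, RNA set free from broken cells enters all droplets, so low somatic counts were set beside those of germ cell genes. The germ cell markers Ddx4, Dazl, Zbtb16, Sohlh1, Taf4b and Tdrd1 together had 2.35% of their germ cell level in somatic cells (2.01 to 2.74%), with 9.78% for the highest, Taf4b, and a median of 2.41%. Mt2 had 2.76% (2.46 to 3.08%) and Mt1 13.3%, with a lower bound of 12.6%. The share of Mt2 thus had an interval that overlapped that of the summed markers, while the value of Mt1 was above that of each of the 6 markers over the somatic cells as a whole. Taf4b, on 20 UMIs, had an interval of 5.85 to 15.5%, which includes the Mt1 value. The part of free RNA in either level was not tested.

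The same values were taken by class. In Sertoli-like cells Mt1 had 15.2% of its germ cell level, Mt2 2.46% and the summed markers 2.45%. Stromal-like cells had 13.0% for Mt1, 3.39% for Mt2 (2.81 to 4.05%) and 2.30% for the markers (1.71 to 3.03%), and macrophage-like cells 19.8%, 2.25% and 2.15%. In peritubular myoid-like cells they were closer, with 3.89% for Mt1 and intervals of 0.962 to 2.24% for Mt2 and 0.914 to 2.60% for the markers, and the single marker Ddx4 had 5.03%, above Mt1. T cell-like cells had 10.6% for Mt1, 7.86% for Mt2 and 5.39% for the markers. These values include the 1 cell with 18 Mt1 and 17 Mt2 UMIs, which also held 3 of the 12 marker UMIs of the class. The marker nearest to Mt1 in Sertoli-like cells was Taf4b at 13.7%, on only 12 UMIs (6.97 to 24.4%).

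Red blood cells, which lack a nucleus, offer values from barcodes with little RNA of their own beside hemoglobin. In 11 barcodes at least 50% of the UMIs were hemoglobin, and these had 5 Mt1 UMIs and 1 Mt2 UMI in all, 0.455 and 0.0909 per barcode, with 0 UMIs of the 6 germ cell markers. Of the 11, 1 was among the kept cells and was also counted in the progenitor-like class. It alone held 2 of the Mt1 UMIs, the 1 Mt2 UMI and 2094 of the UMIs that were not hemoglobin. Per UMI that was not hemoglobin, Mt1 had 935 CPM (304 to 2183) in the 11 barcodes and Mt2 187 CPM (4.74 to 1042). The levels of the cell classes are per all UMIs of a class, so these values were not set against them. The mean per cell was 2.80 Mt1 and 0.478 Mt2 UMIs in Sertoli-like cells, and 0.628 and 0.255 in peritubular myoid-like cells. These barcodes held only 5345 UMIs that were not hemoglobin, so these values have low precision.

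**Figure D4:**
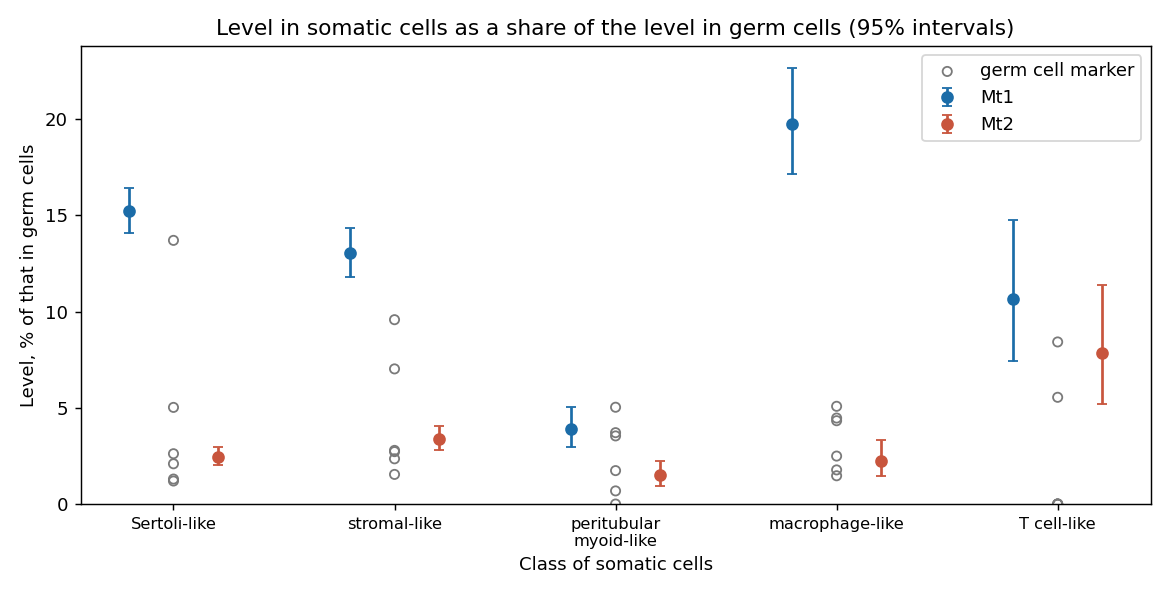
Level in each somatic class as a percentage of the level in germ cells for Mt1, Mt2 (with exact 95% intervals) and the 6 germ cell markers (open circles). Mt1 lies at 15.2, 13.0 and 19.8% in Sertoli-like, stromal-like and macrophage-like cells, above the values of all 6 markers there, and Mt2 lies among the markers. The markers are drawn without intervals, and those of Taf4b in these classes include the Mt1 values.

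To compare the spread between cells at equal depth, cells were thinned at random to 5000 UMIs. Shallower cells were left out, 36 of 133 differentiating-like, 7 progenitor-like, 2 SSC-like, 20 Sertoli-like, 14 stromal-like, 4 peritubular myoid-like and 10 of 26 T cell-like cells. The differentiating-like cells left out had the higher Mt1 level given above. All 110 thinned SSC-like cells had a Mt1 UMI and 98.2% had a Mt2 UMI. A Mt1 UMI was found in 68.1% of Sertoli-like cells (61.7 to 74.0%) and 71.4% of macrophage-like cells, but in 43.0% of stromal-like cells and in 28.9% of those named peritubular myoid-like, and without thinning the shares were 82.0, 88.6, 54.8 and 36.2%. For Mt2 the thinned shares were 23.0, 22.9, 17.4 and 18.9% in the same order of classes. At 3000 UMIs per cell the Mt1 shares were 52.8, 45.7, 34.8 and 18.1% and the Mt2 shares 9.45, 8.57, 14.1 and 7.45%. The macrophage-like Mt1 intervals, 53.7 to 85.4% at 5000 UMIs and 28.8 to 63.4% at 3000, included the Sertoli-like shares. The order of Sertoli-like and macrophage-like cells for Mt1 was therefore not resolved at either depth. For Mt2 the order of the classes was not the same at both depths. The thinned Mt2 levels were under 1 UMI per cell, and no order was read from them.

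Germ cells of the same stage varied in both genes by more than counting alone gives. In thinned SSC-like cells Mt1 ranged from 1 to 42 UMIs and Mt2 from 0 to 38, with Fano factors (variance over mean, 1 for pure counting error) of 5.41 and 4.28. Among 1460 genes with a mean of at least 0.5 UMIs in these cells, this placed Mt1 7th and Mt2 14th, although the factor tends to rise with the mean. Progenitor-like cells had factors of 3.41 and 3.98, and the differentiating-like ones 2.91 and 2.55. The last class joins 2 clusters with different levels. Within them the factors were lower, 2.37 and 2.45 in the Kit and Stra8 cluster and 2.07 and 1.68 in the Ly6k cluster. At 3000 UMIs per cell the SSC-like factors were 3.07 and 2.85, since shallower counts hold more counting error, and Mt1 and Mt2 were 7th and 8th of 886 genes. Mt1 in Sertoli-like cells had a factor of 1.75.

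The genes varied together from cell to cell where both were abundant. Over the 110 thinned SSC-like cells the Pearson correlation of Mt1 and Mt2 was 0.76 and Spearman's rho was also 0.76. The Pearson values were 0.62 over 72 progenitor-like cells, 0.47 over 97 differentiating-like cells and 0.24 over 235 Sertoli-like cells. Within the differentiating-like class they were 0.36 over 66 cells of the Kit and Stra8 cluster and 0.41 over 31 of the Ly6k cluster. These are descriptions over cells of 1 library, and lower counts by themselves lower a correlation. The SSC-like cell with most UMIs of the pair had 227 of Mt1 and 192 of Mt2 among 30837, and the next had 161 and 140 among 27871, when cells were ordered by the sum of both genes. The 12 highest SSC-like cells held 27.0% of the Mt1 UMIs of the class.

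**Figure D5:**
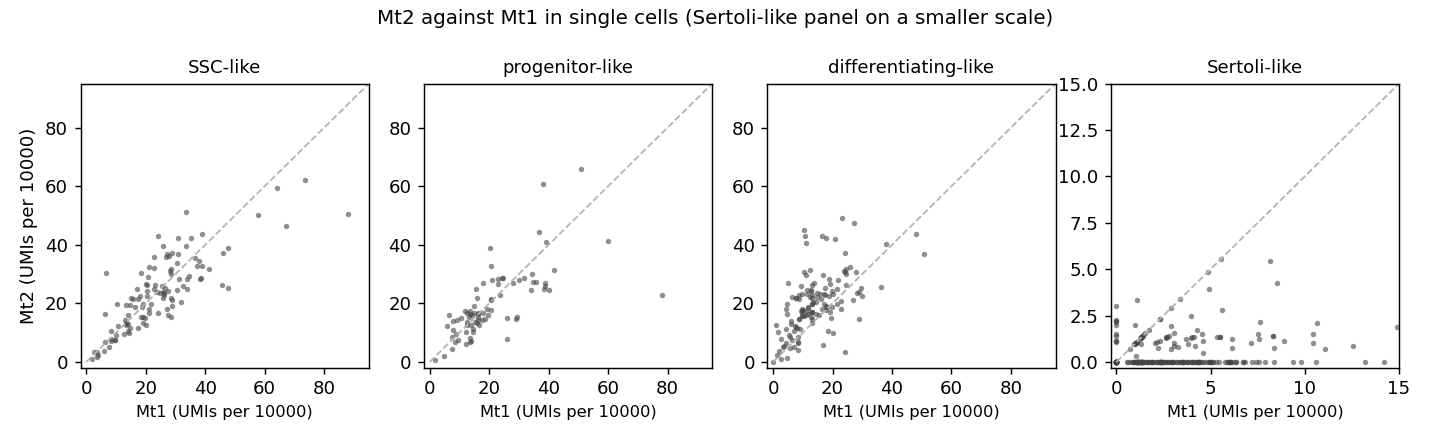
Mt2 against Mt1 in single cells, each as UMIs per 10000 UMIs of the cell, for the 3 germ cell stages and Sertoli-like cells, with a dashed line at equal counts and a smaller scale in the Sertoli-like panel. SSC-like cells scatter along the line, 104 of 133 differentiating-like cells lie above it, and most Sertoli-like cells lie along the Mt1 axis.

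Stromal-like cells were the most uneven of the large somatic classes. Of 186 cells, 84 had no Mt1 UMI, while 1 cell had 58 Mt1 and 32 Mt2 UMIs among 16643 and another had 43 and 6 among 15745. These cells held 1 UMI each of the 6 germ cell markers. The SSC-like cell with the most Mt1 held 55 among 30837 UMIs, and the progenitor-like cell ranked 3rd by the pair held 12 among 17585. The source of the Mt1 and Mt2 UMIs in these stromal-like cells was not tested. The 19 highest stromal-like cells held 67.6% of the Mt1 UMIs. Mt1 had a Fano factor of 6.21 in the thinned cells, and 4.12 without the top 1% of cells of the class. The Pearson correlation of the genes over 172 stromal-like cells was 0.60 while Spearman's rho was 0.19, so that relation rested on few cells.

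Genes of metal handling were then counted as higher or lower where the CPM ratio was at least 2 with an interval excluding 1. For germ cells over somatic cells, 25% of the 12989 genes measured were higher and 28.4% lower, with a median log2 ratio of 0.04, and Mt1 and Mt2 were higher by the contrast that drew attention to them. At a ratio of 1.5 the shares were 33.9% higher and 33.9% lower. Mtf1, the metal sensor, was higher in germ cells, with 416 against 107 UMIs, a 3.75-fold ratio of CPM or 1.91 on the log2 scale. Its level was 83.0 CPM in SSC-like cells, 62.9 in progenitor-like cells and 73.3 in the differentiating-like ones, on 203, 91 and 122 UMIs. SSC-like and differentiating-like cells did not differ in Mtf1 beyond counting error, with a log2 ratio of 0.18 (-0.15 to 0.52).

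Zinc transporters move zinc out of or into the cytoplasm. Of 8 zinc exporters measured, 2 were higher and 1 lower in germ cells, with a list median of -0.35. Slc30a1, the plasma membrane exporter that MTF1 also controls, had 15.7 against 17.0 CPM, a log2 ratio of -0.12 (-0.56 to 0.32). Of its 91 somatic UMIs, 65 came from Sertoli-like cells (28.3 CPM). It had 15.5 CPM in macrophage-like, 7.31 in stromal-like, 6.75 in peritubular myoid-like and 6.06 in T cell-like cells. Slc30a7 of the Golgi was higher (log2 ratio 1.03) and Slc30a2 lower (-2.60), while Slc30a3 was called higher on 26 UMIs against 1 (log2 ratio 4.65, 2.04 to 10.01). Sertoli-like cells held 110 of the 123 somatic Slc30a2 UMIs (47.9 CPM). The other somatic classes had 0 to 6.09 CPM of Slc30a2, and germ cells 3.78 CPM. Slc30a7 had 20.5 CPM in germ cells and 3.92 CPM in Sertoli-like cells. It had 12.2 CPM in stromal-like, 13.5 in peritubular myoid-like, 19.4 in macrophage-like and 30.3 in T cell-like cells (5 UMIs). Of 9 zinc importers, 0 were higher and 2 were lower, Slc39a1 (-1.53) and Slc39a10 (-1.15), with a median of -0.24. For Slc39a10, 104 of the 158 somatic UMIs came from Sertoli-like cells (45.3 CPM). The other somatic classes had 13.5 to 36.4 CPM of it, and germ cells 13.3 CPM.

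Of 8 copper handling genes measured, 4 were lower in germ cells, beside 28.4% of all genes, the copper importer Slc31a1 (log2 ratio -1.64), Slc31a2 (-2.05), the copper chaperone Atox1 (-1.22) and Ccs (-1.61), which loads copper onto superoxide dismutase. Sod1, the copper and zinc superoxide dismutase itself, was the 1 higher, with 355 against 136 CPM (log2 ratio 1.38). The list median was -0.86.

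Other inducers of metallothioneins were followed through their response genes. Of 8 oxidative stress response genes, the glutathione synthesis genes Gclc (log2 ratio 2.33) and Gclm (1.08) were higher in germ cells and Hmox1 (-2.53), Nqo1 (-1.76) and Sqstm1 (-1.03) were lower, with a list median of -0.57. For Hmox1, which macrophages use to break down heme, 2266 of the 2450 somatic UMIs came from the 35 macrophage-like cells (4391 CPM), and Sertoli-like, stromal-like, peritubular myoid-like and T cell-like cells had 48.8, 34.1, 17.6 and 18.2 CPM, all below the 79.0 CPM of germ cells. Of 6 glucocorticoid response genes, Tsc22d3 (2.80) and Zbtb16 (5.49) were higher and Fkbp5 (-1.01) was lower, with a median of 0.78. Zbtb16 is also a transcription factor of undifferentiated spermatogonia and was used to name the germ cells. Of 12 immediate early and dissociation genes, which respond within minutes to stress of the cell, 0 were higher and 10 were lower in germ cells, Fos with 11.2 against 343 CPM and Jun with 13.9 against 275 CPM, and the list median was -2.81.

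The same limits were then applied to SSC-like over differentiating-like cells. Of 9797 genes, 8.03% were higher and 7.56% lower, and the median log2 ratio was -0.09. Neither Mt1 nor Mt2 reached a ratio of 2. At a ratio of 1.5, which Mt1 passed and where 11.6% of genes were higher and 15.1% lower, Mt3 was counted as lower. Of 7 zinc exporters measured, 3 were lower in SSC-like cells, Slc30a1 (log2 ratio -1.09), Slc30a3 (-1.66) and Slc30a4 (-1.71), each on fewer than 40 UMIs per class. None of 9 zinc importers and none of 7 oxidative stress response genes passed, and of 8 copper handling genes Ccs was lower (-1.33). Of 6 glucocorticoid response genes Zbtb16 was higher (1.46), while Tsc22d3 had 270 against 247 CPM. Of 8 immediate early genes 4 were higher in SSC-like cells, Egr1 (3.20), Ier2 (1.26), Junb (1.13) and Zfp36 (4.69 on 38 UMIs against 1, 2.13 to 10.03), with a list median of 1.04. The part of this in the Mt1 difference was not tested.

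The genes most like each member over the 8 classes were found by the Pearson correlation of log2(CPM + 1) among 9072 genes. For Mt1 these were Psmd1 of the proteasome (0.99), Nup107 of the nuclear pore, Zc3h8, Smchd1 and Ints12, each with 0.98 after rounding. For Mt2 they were Psmc1, Xlr5c, Rpl39l, Ddx18 and Dazl, all at or above 0.99. With Mt1, Mt2 correlated at 0.91 and ranked 222nd, and Mt3 at 0.19. Over only 8 classes of which 3 are germ cells, 3.73% of genes reached 0.9 with Mt1 and 7.89% with Mt2.

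Over single cells the likeness of other genes to the sum of Mt1 and Mt2 was weaker. In 110 thinned SSC-like cells the highest of 2473 genes by Spearman's rho were Sft2d1 (0.35), Hmgn2, Hnrnpdl, Ubb and Rab14, and Mtf1 had 0.21. In 97 differentiating-like cells they were Rps26 (0.56), Mif, Pfn1, Rps2 and Ftl1, where Mtf1 had 0.19. In 235 Sertoli-like cells Rnf7, Txnl4a, Arf6, Hsp90b1 and Fam104a led with 0.21 to 0.24, and in 172 stromal-like cells Me1, Idh1, H2afj, mt-Co2 and Uqcrq led with 0.23 to 0.28. The differentiating-like values were the highest, but that class joins 2 clusters with different levels of both genes, and the part of this was not tested. The correlations in the other classes were weak. No finding is drawn from any of these values.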

How the data were processed

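UMI counts per gene and barcode were analysed for 1 wild-type library. The authors processed reads with Cell Ranger 2.1.0 against mm10, per the submitters' processing notes, and deposited these counts without normalization. Seurat 5.3.0 in R 4.3.3 was run with 14 principal components and a resolution of 0.5, the values in the study's methods, and germ cells were clustered again. Genes in at least 3 cells were used, log-normalized to 10000 UMIs. Doublets were called with scrublet in scanpy 1.11.5 (expected rate 0.01), which marked 0.412% of barcodes. Clusters were named by mean log-normalized marker expression. Fewer than 3 markers detected in 10% of cells, or more markers of another class among the top 10 genes, left a cluster unnamed. In the first round markers of germ cell stages counted as germ cell markers, a rule set after the largest germ cell cluster had been left unnamed for a hemoglobin gene. Germ clusters were held against germ classes only.

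The members, lists and marker genes were chosen with earlier results of these data known. Named genes are the metallothioneins, genes of the metal lists with at least 20 UMIs, and the 5 genes most like the members. With 1 library there are no replicates and no p-values. Intervals are exact (Poisson, conditional binomial for ratios, Clopper-Pearson for shares), at 95%, for counting error only. Scripts were tested on simulated data. Gene positions came from GENCODE vM21 and promoters from RefSeq. Alternatives covered filters, clustering, denominator, thinning and fold.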

Additional observations from a re-analysis of the deposited data

Results flagged for a closer look

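The 36 barcodes left out for at least 10% mitochondrial UMIs entered no comparison and held both genes. Over their 292023 UMIs that were not hemoglobin, Mt1 had 452 UMIs or 1548 CPM (exact Poisson interval 1408 to 1697) and Mt2 459 UMIs or 1572 CPM (1431 to 1722). Both levels lay between those of kept germ cells and kept somatic cells. The same barcodes held 234 UMIs of the 6 germ cell markers, and single barcodes reached 89 Mt1 and 82 Mt2 UMIs.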

How the results depend on the processing

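None of the 62 recomputed log2 ratios changed direction, and 49 stayed within the interval of the reported value. Those that moved were, for germ cells over somatic cells, 3.46 for Mt1 and 6.07 for Mt2 with a mitochondrial limit of 5%, 2.36 and 4.96 with clusters made on one part of the counts and levels taken from the other, 3.01 and 5.44 without the top 1% of cells of each class, and 2.79 and 4.99 with germ cells taken by a UMI of Ddx4 or Dazl. For SSC-like over differentiating-like cells, Mt1 moved to 0.85 with no mitochondrial limit, 1.10 at a resolution of 1.2, 1.09 with 2000 variable genes by vst and 0.77 as a mean over cells of CPM per cell, for which Mt2 moved to 0.25. The cause was not tested. No SSC-like cluster was named with the 5% limit, at a resolution of 0.3 or in the count split, so those settings gave no value for this ratio, and the count split left the largest germ cell cluster unnamed.

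The Mt1 share of the pair moved out of its interval in 3 of 102 recomputed values, the farthest in progenitor-like cells of the count split, at 44.2%, and it ranged from 37.7 to 42.2% in differentiating-like and from 50.6 to 51.8% in SSC-like cells. Levels by class moved in 37 of 236 values and Fano factors in 4 of 115. At a ratio of 1.5, 9 of 32 counts of list genes moved, among them Mt1 counted as higher in SSC-like cells and 4 glucocorticoid response genes higher in germ cells. Leaving out the hemoglobin-rich barcode, the T cell-like cells or germ cells under 5000 UMIs was added after seeing the data and moved no ratio out of its interval. No paired analysis was possible because the data are those of a single pooled library. Depth limits Mt2 in the somatic classes, where 24 to 122 UMIs stand behind each level. Of the shares of thinned cells with a UMI, 7 of 14 moved between 5000 and 3000 UMIs per cell. Further thinning lowers such shares by itself, so this is no measure of how firm they are.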
